A study of Homo sapiens with 18 samples.

Results

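The 8 genes described here encode the subunits of TRiC (also called CCT), the chaperonin of the cytosol of human cells: TCP1, CCT2, CCT3, CCT4, CCT5, CCT6A, CCT7 and CCT8. They were taken by gene symbol from the 60683 gene rows of each of 2 expression tables. All 8 were found in both tables, and all 8 passed the filter on low counts, which left 13882 genes to test in the table of the actin groups (the ACTB table) and 13846 in the table of the SETD3 groups (the SETD3 table).

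TRiC is a barrel made of a pair of stacked rings, and each ring holds the 8 different subunits once, in a fixed order. An unfolded protein binds inside the barrel, and ATP binding and hydrolysis close a built-in lid over it while it folds. Actin and tubulin are its best known clients and need it to reach their native form. Prefoldin hands unfolded actin to the barrel, and electron microscopy has placed actin in contact with CCT4 and with CCT2 or CCT5.

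Poly(A)-enriched RNA was sequenced from HCT-116 cells, an established line from a human colorectal carcinoma, in 6 groups of 3 libraries. In the ACTB table, the ACTB-mut and ACTB-WT groups were actin knockout cells made to express mutant actin (H73A in the series design) or wild-type actin, and the Actin KO group was the knockout with an empty construct, so the knockout was common to all 3 groups. Position 73 is the histidine that the enzyme SETD3 methylates. In the SETD3 table, SETD3 KO2 and SETD3 KO1 were labelled as SETD3 knockouts and SETD3 CT as their control. The sources used here do not give the promoter of the constructs or say whether a line was 1 clone. The cell line label read HCT-117 for 1 library, replicate 3 of SETD3 KO2, and this library stayed in the analysis. Nothing in the labels says that the 3 libraries of a group came from separate cultures, so p-values measure the spread between these libraries, which may be technical.

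Libraries of the ACTB table held between 5144386 and 11271910 counts, and those of the SETD3 table between 3389586 and 11652967. Levels are given as CPM, counts per 1000000 after TMM scaling, which sets the libraries of a table to a common level. ACTB averaged 40.7 ± 7.77 CPM in ACTB-mut, 27.8 ± 4.09 CPM in ACTB-WT and 18.9 ± 5.32 CPM in Actin KO (SD, n = 3 each), and no comparison of these groups passed edgeR's test for it. DESeq2 called it for ACTB-mut against Actin KO (log2 change 1.10, adjusted p 0.00740). In the SETD3 table, which was scaled separately, ACTB averaged 972 CPM in SETD3 KO2, 1361 CPM in SETD3 KO1 and 1125 CPM in SETD3 CT. ACTG1, the gene of gamma-actin, averaged 6452 CPM in ACTB-mut, 8076 CPM in ACTB-WT and 7356 CPM in Actin KO. RNA of an actin gene was thus abundant in all 3 actin groups, the knockout included. SETD3 averaged 21.9 ± 6.08 CPM in SETD3 KO2, 10.1 ± 6.10 CPM in SETD3 KO1 and 21.8 ± 12.3 CPM in SETD3 CT (SD, n = 3 each), so its RNA did not separate KO2 from CT, and the groups are called here by their labels. Of 10 colorectal epithelial markers, each library had 5 to 7 at or above 1 CPM, with summed levels of 7949 to 13415 CPM led by KRT18, KRT8 and KRT19. CDX1 was at 0 in all libraries and VIL1 at no more than 0.157 CPM. Fibroblast markers summed to at most 15.4 CPM and blood markers to at most 34.4 CPM, and COL3A1, LUM, PTPRC and CD3E were at 0. Some technical measures differed in ACTB-mut: its libraries held 7919495 to 11271910 counts, against 5144386 to 7601018 in ACTB-WT and 7512656 to 8774607 in Actin KO. Mitochondrial transcripts held 0.910% to 1.61% of counts in ACTB-mut, against 0.636% to 0.778% in ACTB-WT and 0.739% to 0.874% in Actin KO. The trend of a gene's level with the GC content of its transcript ran from -0.16 to -0.05 log2 units per 10 points of GC in ACTB-mut, against -0.03 to 0.09 in ACTB-WT and -0.01 to 0.15 in Actin KO. Of these, the GC trend is followed below by fits that remove it. The part of the others in the results was not tested.

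All 8 subunits were detected in every library, and their RNA levels were unequal. Per length, in CPM per kb of the principal transcript, CCT3 (the gamma subunit) and CCT7 (eta) stood above the other 6 in every library, with levels of 412 to 661 and 373 to 576 CPM per kb over the 18 libraries. CCT5 (epsilon) followed at a median of 166 CPM per kb, TCP1 (alpha, first found in the mouse t-complex) at 151, CCT6A (zeta) at 107, CCT4 (delta) at 87.9, CCT2 (beta) at 64.3 and CCT8 (theta) at 27.5. The ranges of each pair of neighbours in this order overlapped, apart from CCT7 and CCT5, whose highest level was 197 CPM per kb. The tables were scaled separately, so the order, which is read over both, is a description. CCT8 made up 2.76% ± 0.0811 of the per-length sum of the 8 subunits in ACTB-mut, 1.35% ± 0.0767 in ACTB-WT and 2.37% ± 0.0955 in Actin KO (SD, n = 3 each). In counts, CCT8 rested on 191 to 1049 per library among the actin groups and on 51 to 827 among the SETD3 groups, against 4465 or more for CCT3.

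**Figure D1:**
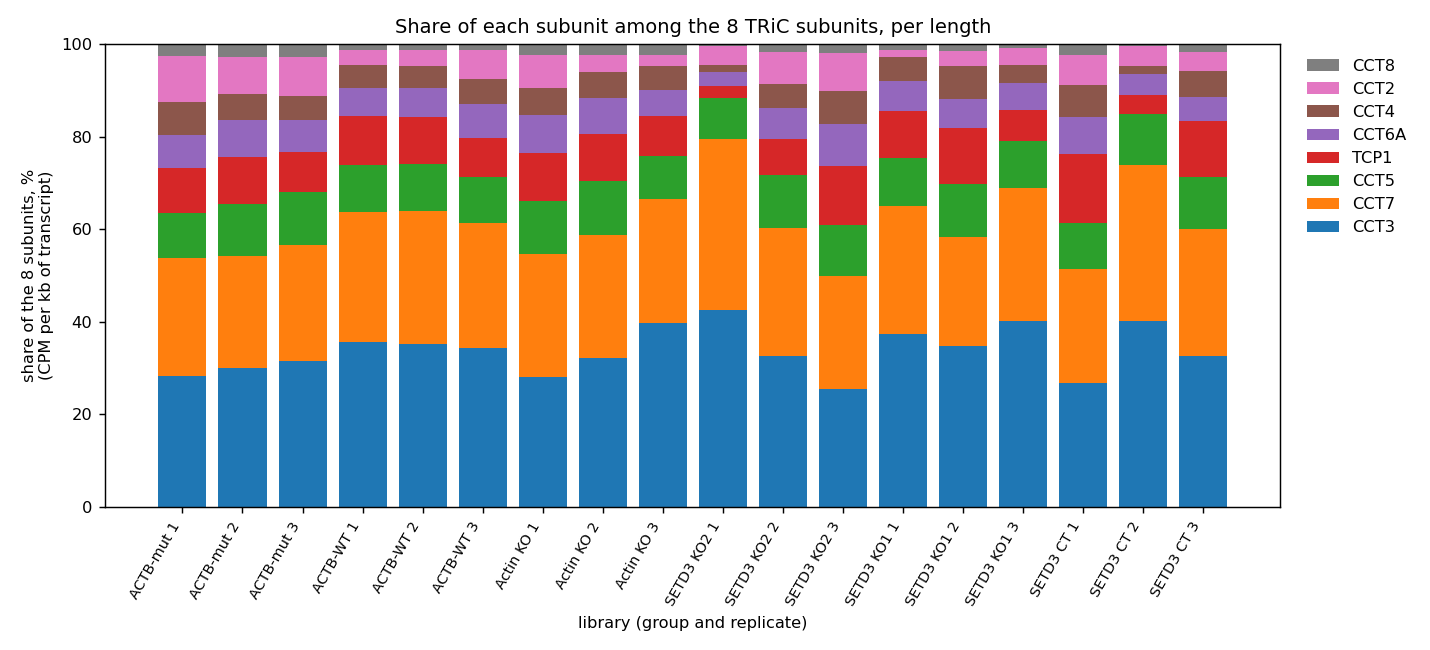
Share of each subunit in the summed CPM per kb of the 8 TRiC subunits (y axis, %) in each of the 18 libraries (x axis, by group and replicate). CCT3 and CCT7, at the bottom of each bar, hold the largest shares, and CCT8, at the top, holds 2.76% on average in ACTB-mut, 1.35% in ACTB-WT and 2.37% in Actin KO.

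The genes lie on 7 chromosomes in GRCh38, CCT4 and CCT7 sharing chromosome 2. CCT8 lies at chr21:29055805-29073797 on the minus strand, CCT2 at chr12:69585334-69601570 on the plus strand and TCP1 at chr6:159778498-159789749 on the minus strand. CCT3 lies at chr1:156308968-156367873 (minus strand), CCT4 at chr2:61868089-61888804 (minus strand), CCT5 at chr5:10249921-10266412 (plus strand), CCT6A at chr7:56051630-56063989 (plus strand) and CCT7 at chr2:73233420-73253021 (plus strand). Below stand the promoters of CCT8, the subunit whose level differed most clearly between the actin groups, of CCT2, the subunit with the widest spread there, and of TCP1, a subunit with a heat shock element pair. The windows run from 250 bases before the RefSeq transcription start to 50 after it, 5′ to 3′ on the gene's strand, in GRCh38.p14. Capitals mark matches to motifs searched on both strands: CCAAT (the CCAAT box), CCGGAAG (the core bound by ETS factors) and GAANNTTC (a pair of heat shock units, the site type of HSF1, which is known to drive chaperonin genes under heat stress).
CCT8, chr21:29073599-29073898, minus strand: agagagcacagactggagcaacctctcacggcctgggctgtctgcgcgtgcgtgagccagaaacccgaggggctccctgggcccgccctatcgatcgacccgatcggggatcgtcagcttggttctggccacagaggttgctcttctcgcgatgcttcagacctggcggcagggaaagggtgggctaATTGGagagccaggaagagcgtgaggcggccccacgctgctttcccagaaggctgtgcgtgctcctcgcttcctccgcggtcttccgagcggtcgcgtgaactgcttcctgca
CCT2, chr12:69585209-69585508, plus strand: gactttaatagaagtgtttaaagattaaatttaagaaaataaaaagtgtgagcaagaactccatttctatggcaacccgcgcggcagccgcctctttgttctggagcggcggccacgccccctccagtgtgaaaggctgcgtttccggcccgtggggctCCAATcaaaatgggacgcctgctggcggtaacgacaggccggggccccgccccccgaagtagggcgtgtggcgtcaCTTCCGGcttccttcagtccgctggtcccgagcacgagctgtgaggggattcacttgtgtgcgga
TCP1, chr6:159789553-159789852, minus strand: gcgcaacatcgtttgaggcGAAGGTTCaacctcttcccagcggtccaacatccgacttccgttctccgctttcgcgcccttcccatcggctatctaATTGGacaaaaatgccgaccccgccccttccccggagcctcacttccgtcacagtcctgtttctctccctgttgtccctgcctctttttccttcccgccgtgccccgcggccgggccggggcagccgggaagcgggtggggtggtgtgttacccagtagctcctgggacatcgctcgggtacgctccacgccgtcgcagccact
In these windows CCT8 has 1 CCAAT box, CCT2 has a CCAAT box and an ETS core, and TCP1 has a heat shock pair and a CCAAT box. Promoters were given for 7 of the 8 genes, CCT6A being the other, and CCT2 and CCT4 had a second window each. Over all windows of these 7 genes, CCAAT occurred in 4 (CCT2, CCT3, CCT8 and TCP1), against 34.6% of 35116 promoters. GAANNTTC occurred in 2 (CCT2, in its second window, and TCP1), against 6.77%, and CCGGAAG in 1 (CCT2), against 10.3%. The reverse pair TTCNNGAA occurred in 1 (CCT4), against 7.74%, and the E-box CACGTG in 0, against 7.26%. These matches describe letters in the windows only.

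CCT8 was the subunit that changed among the actin groups. In ACTB-mut its level was 91.7, 93.5 and 93.9 CPM, against 38.0, 40.8 and 45.8 CPM in ACTB-WT and 73.4, 73.2 and 69.0 CPM in Actin KO. The 3 groups did not overlap: the ACTB-mut libraries were highest, the Actin KO libraries in between and the ACTB-WT libraries lowest. By pair, 9.32% of tested genes were higher without overlap in ACTB-mut than in Actin KO. A further share, 9.08%, was lower without overlap in ACTB-WT than in Actin KO. Genes with both were not counted. Less RNA per cell and fewer cells expressing the gene cannot be told apart in bulk RNA.

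**Figure D2:**
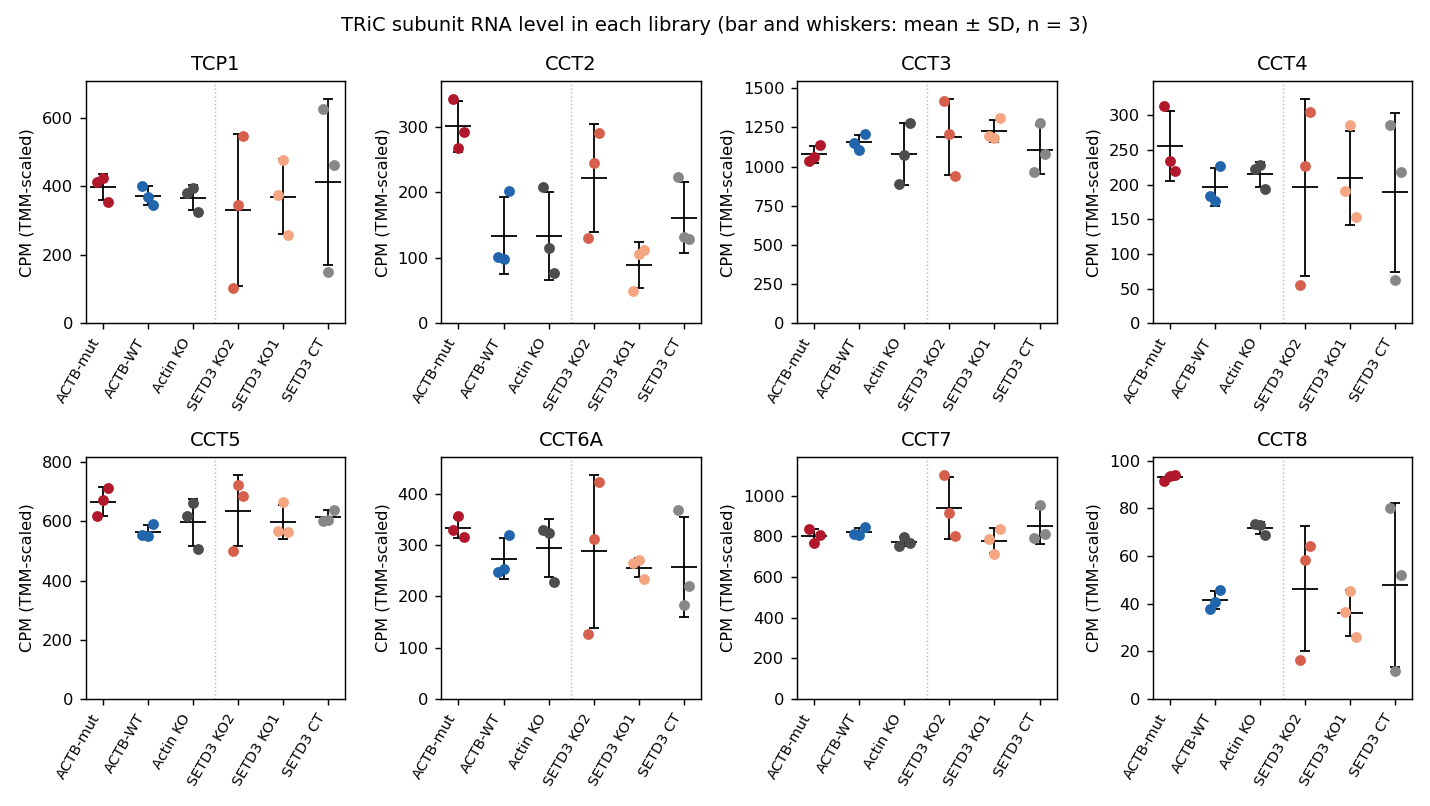
Level of each TRiC subunit in CPM (y axes, from 0) in the 18 libraries, as points by group, with the mean and SD of 3 libraries. CCT8 lies between 91.7 and 93.9 CPM in ACTB-mut, 38.0 and 45.8 CPM in ACTB-WT and 69.0 and 73.4 CPM in Actin KO, without overlap, while TCP1, CCT4 and CCT8 spread widely in the SETD3 groups on the right of each panel.

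ACTB-mut and ACTB-WT differ in whether the added actin has the histidine that is methylated. CCT8 was higher in ACTB-mut than in ACTB-WT by 1.16 on the log2 scale (SE 0.17, 95% interval 0.81 to 1.52), a fold of 2.24, with an adjusted p of 0.00287 by edgeR's quasi-likelihood test. The adjustment (Benjamini-Hochberg) covers every tested gene of a comparison, and a gene passes below 0.05. CCT8 ranked 19 of the 13882 tested genes by p. It was the 1 of 8 subunits that passed, where 1.24% of all tested genes passed in either direction and 0.634% passed as higher. With the trends of GC content and length removed the difference was 0.92 (adjusted p 0.0126), and with any 1 of the 6 libraries left out it stayed past the threshold (adjusted p 0.00779 to 0.0232).

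CCT2, whose missense variants are known from an inherited retinal disease, had a difference of like size with a wider spread. It stood at 343, 267 and 292 CPM in ACTB-mut, against 102, 97.7 and 203 CPM in ACTB-WT. No ACTB-WT library reached the lowest ACTB-mut library. The difference was 1.17 on the log2 scale (SE 0.35, interval 0.39 to 1.94) and missed the threshold, with an adjusted p of 0.180 in edgeR's test. Without ACTB-WT replicate 3, the highest of its group, it was 1.59 and passed (adjusted p 0.0283).

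CCT5, in which a mutation is known from a sensory neuropathy, had 618, 672 and 713 CPM in ACTB-mut, against 553, 551 and 593 CPM in ACTB-WT. These libraries did not overlap either, and the difference of 0.24 (SE 0.12, interval -0.01 to 0.48) had an adjusted p of 0.434 in edgeR. CCT4, a subunit that contacts actin, differed by 0.38 (SE 0.15, interval 0.05 to 0.71, adjusted p 0.326 in edgeR), and its highest ACTB-WT library, at 228 CPM, lay above the lowest ACTB-mut library, at 220.2 CPM. CCT6A had 316 to 356 CPM in ACTB-mut, against 248 to 319.5 CPM in ACTB-WT, and TCP1 had 354 to 424 CPM, against 347 to 403 CPM. CCT3 had 1037 to 1138 CPM in ACTB-mut, against 1109 to 1206 CPM in ACTB-WT, and CCT7 had 768 to 835 CPM, against 809 to 847 CPM. All 4 overlapped between these groups, with differences of -0.10 (CCT3) to 0.29 (CCT6A). In all, 3 of 8 subunits were higher without overlap, where 9.93% of tested genes were. The median over the 8 was 0.26, against 0.02 over all tested genes, and 0.12 with the GC and length trends removed. The summed level of the 8 subunits was 3929.7 ± 52.6 CPM in ACTB-mut and 3561 ± 202 CPM in ACTB-WT (SD, n = 3 each).

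Against the knockout without added actin, wild-type actin went with less CCT8 RNA. CCT8 fell by 0.79 on the log2 scale in ACTB-WT relative to Actin KO (SE 0.17, 95% interval from -1.14 to -0.44, adjusted p 0.0288 in edgeR), which is 0.579 of the Actin KO level. It was the 1 of 8 subunits that passed, where 1.12% of all tested genes passed in either direction and 0.677% passed as lower. The call is a narrow one: with any 1 of the 6 libraries left out the adjusted p was 0.0518 to 0.125, while the value stayed between -0.87 and -0.74. With GC and length trends removed the value was -0.78 and passed (adjusted p 0.0231). DESeq2 called it as well (-0.78, adjusted p 2.45e-04). With replicate number as a block in edgeR's fit it did not pass (-0.79, adjusted p 0.0753).

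The other 7 subunits differed little between ACTB-WT and Actin KO, with values of -0.13 (CCT4) to 0.10 (CCT3). Their 95% intervals were narrow for CCT7 (-0.11 to 0.29), TCP1 (-0.24 to 0.28) and CCT5 (-0.32 to 0.17), and wide for CCT2 (-0.76 to 0.78). CCT2 stood at 102, 97.7 and 203 CPM in ACTB-WT, against 208, 115 and 76.7 CPM in Actin KO, a spread within each group as large as any difference between them. CCT7 stood at 810.3, 809 and 847 CPM in ACTB-WT, against 752, 796 and 769.6 CPM in Actin KO, without overlap, and its difference of 0.09 did not pass (adjusted p 0.827 in edgeR). No overlap was found for 1 subunit higher and 1 lower, against 7.61% and 9.08% of tested genes. The median over the 8 was -0.03, and the summed level was 3561 ± 202 CPM in ACTB-WT and 3532 ± 122 CPM in Actin KO (SD, n = 3 each).

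Mutant actin against the knockout gave no call. None of the 8 subunits passed edgeR's test between ACTB-mut and Actin KO, where 0.922% of all tested genes did, and 0 passed in DESeq2, which called 5.68% of the genes it gave an adjusted p. CCT2 and CCT8 had an unadjusted p under 0.05, as 11.5% of tested genes did, and both were higher without overlap, as were 9.32% of tested genes. CCT2 stood at 343, 267 and 292 CPM in ACTB-mut, against 208, 115 and 76.7 CPM in Actin KO, a difference of 1.17 (SE 0.35, interval 0.40 to 1.95, adjusted p 0.196 in edgeR). It was 1.65 and passed without Actin KO replicate 1 (adjusted p 0.0245), the library with the highest CCT2 level of its group. CCT8 differed by 0.37 (SE 0.16, interval 0.03 to 0.72, adjusted p 0.387 in edgeR), which became 0.14 with the GC and length trends removed. The other 6 ran from 0.00 (CCT3) to 0.25 (CCT4). The median over the 8 was 0.17, against 0.03 over all tested genes, and 0.06 with the GC and length trends removed. These 3 comparisons share libraries, so their values are not independent of each other.

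**Figure D3:**
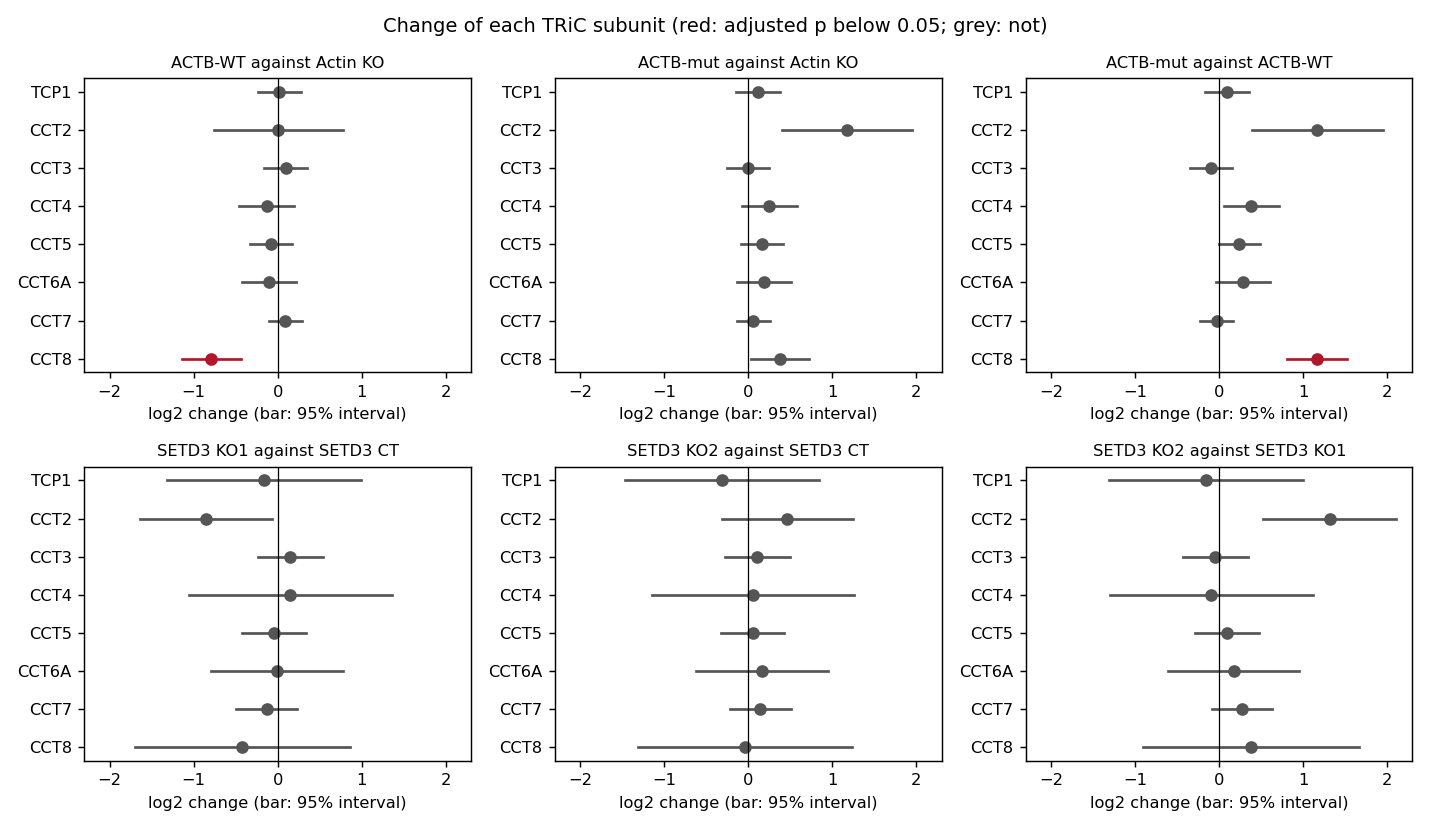
log2 change of each TRiC subunit (points) with its 95% interval (bars) in the 6 comparisons. CCT8 is the subunit past the threshold, at 1.16 for ACTB-mut against ACTB-WT and -0.79 for ACTB-WT against Actin KO, and the intervals of TCP1, CCT4 and CCT8 are widest in the SETD3 comparisons in the lower row.

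CCT8 is the subunit gene on chromosome 21, and the other genes of that chromosome also stood apart in these comparisons. This was looked at after the values were seen and is given as a description. Among genes with a mean of 32 CPM or more, TRiC subunits left out, the 47 genes of chromosome 21 had a median difference of -0.40 between ACTB-WT and Actin KO, against -0.11 to 0.06 for the medians of the other 22 chromosomes. Between ACTB-mut and ACTB-WT their median was 0.21, against -0.13 to 0.06, and between ACTB-mut and Actin KO it was -0.26, against -0.19 to 0.08. The change of CCT8 lay further out than the chromosome's median in the first pair of these comparisons (-0.79 and 1.16). Between ACTB-mut and Actin KO its sign was the opposite one (0.37).

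Genes near CCT8 had medians further from 0 than the chromosome as a whole in the comparisons that involve ACTB-WT. Within 5 Mb of CCT8 there were 13 such genes, of which 12 had a value below 0 between ACTB-WT and Actin KO (median -0.64) and all 13 a value above 0 between ACTB-mut and ACTB-WT (median 0.64). SOD1, the cytosolic superoxide dismutase, differed by -0.81 between ACTB-WT and Actin KO (adjusted p 9.82e-04 in edgeR) and by 0.98 between ACTB-mut and ACTB-WT (adjusted p 4.04e-04). ATP5PF, a subunit of the mitochondrial ATP synthase, differed by -0.92 (adjusted p 0.00732 in edgeR) and by 1.03 (adjusted p 0.00395). URB1 at -1.08 and IFNGR2 at -1.01 passed between ACTB-WT and Actin KO, and GART at 1.04 between ACTB-mut and ACTB-WT. Between ACTB-mut and Actin KO, 8 of the 13 lay above 0 and 5 below (median 0.11). The part of chromosome position in the CCT8 result was not tested. In the SETD3 table, the median of chromosome 21 was -0.03 for KO1 against CT, within the range of the other chromosomes, -0.21 for KO2 against CT, where the others ran from -0.14 to 0.11, and -0.10 for KO2 against KO1, within their range.

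**Figure D4:**
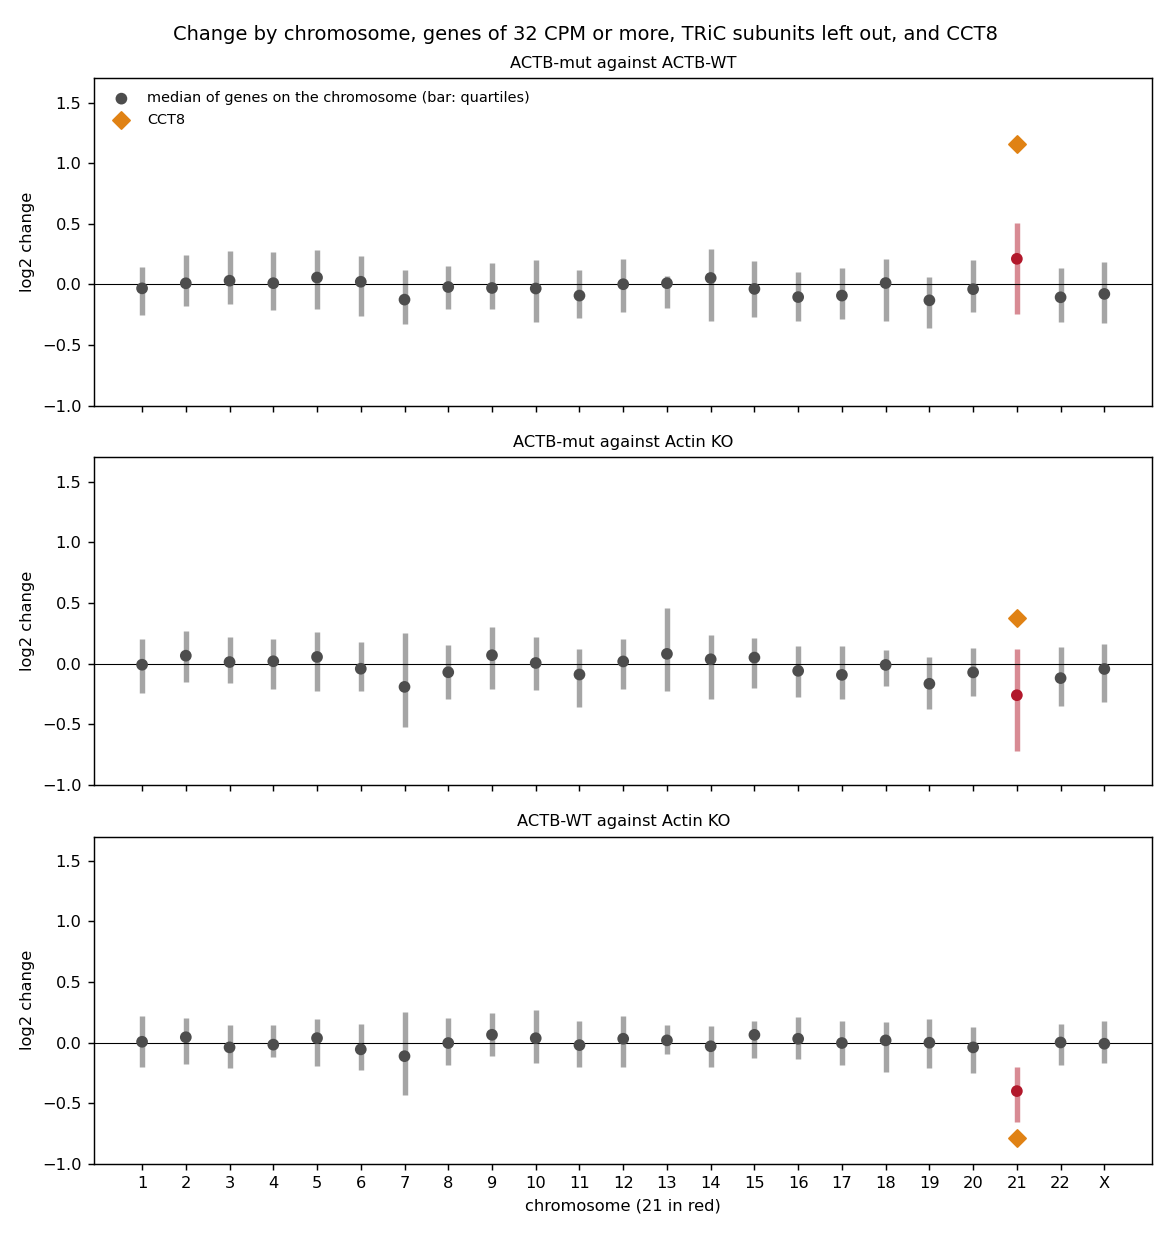
Median log2 change (points) and quartiles (bars) of the genes of each chromosome, for genes of 32 CPM or more without the TRiC subunits, with CCT8 as a diamond, in the 3 comparisons of the ACTB table. Chromosome 21, in red, has medians of 0.21, -0.26 and -0.40 from top to bottom, outside the range of the other 22 chromosomes in each panel.

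The SETD3 table sets cells labelled as lacking the enzyme that methylates actin against their control. No subunit passed edgeR's test in any of its 3 comparisons, and DESeq2 called 0 as well. Few genes passed at all in edgeR: 0.0144% of tested genes for KO1 against CT, 0.0578% for KO2 against CT and 0.0289% for KO2 against KO1. DESeq2 called 0.593%, 0.789% and 0.468% of the genes it gave an adjusted p, in the same order. Unadjusted, p was under 0.05 for 1, 0 and 1 of the 8 subunits, where 5.75%, 4.95% and 4.84% of tested genes were.

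CCT2 was the subunit behind both of these. It stood at 131, 244 and 291 CPM in SETD3 KO2, at 49.1, 106 and 113 CPM in SETD3 KO1 and at 224, 132 and 129 CPM in SETD3 CT. Every KO1 library lay below every library of KO2 and of CT. CCT2 differed by 1.32 between KO2 and KO1 (SE 0.36, interval 0.53 to 2.11, adjusted p 0.674 in edgeR) and by -0.85 between KO1 and CT (SE 0.36, interval -1.64 to -0.07, adjusted p 0.836). No overlap was found for 1 subunit, as higher in KO2 than in KO1 (6.16% of tested genes) and as lower in KO1 than in CT (6.75%).

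CCT8 stood at 16.2, 58.5 and 64.4 CPM in SETD3 KO2, at 36.7, 45.3 and 25.9 CPM in SETD3 KO1 and at 80.2, 11.7 and 51.9 CPM in SETD3 CT. The groups overlapped throughout. Its 95% intervals ran from -1.32 to 1.23 for KO2 against CT and from -1.70 to 0.86 for KO1 against CT. The KO2 interval held both called differences of CCT8 among the actin groups, 1.16 and -0.79. The KO1 interval held -0.79 but not 1.16. TCP1 stood at 104, 345 and 547 CPM in SETD3 KO2, at 375, 479 and 258 CPM in SETD3 KO1 and at 627, 150.1 and 463 CPM in SETD3 CT, and its intervals were of like width (-1.47 to 0.84 for KO2 against CT). CCT4 ran from 55.7 to 306 CPM in SETD3 KO2, 154 to 286 CPM in SETD3 KO1 and 62.5 to 286 CPM in SETD3 CT, and CCT6A from 128 to 424, 234 to 270.3 and 184 to 369 CPM in the same order. CCT3, CCT5 and CCT7 were measured more closely. For KO2 against CT their intervals were -0.28 to 0.49, -0.33 to 0.43 and -0.22 to 0.50, and for KO1 against CT -0.23 to 0.53, -0.42 to 0.34 and -0.49 to 0.23.

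For TCP1, CCT4, CCT6A and CCT8 the lowest levels of the table came from 2 libraries, SETD3 KO2 replicate 1 and SETD3 CT replicate 2. They were the smallest of the table, at 3389586 and 4898827 counts, and had GC trends of 0.38 and 0.28 log2 units per 10 points, against -0.23 to 0.12 in the other 7 libraries. The transcripts of these 4 subunits have 43.1% to 44.7% GC. CCT7, at 51.8% GC, lay above all other 7 in both. CCT2, at 44.1% GC, lay within the range of the other 7 in both, and CCT5, at 44.6%, lay below them in SETD3 KO2 replicate 1 alone. Tested genes had a median GC content of 50.3%.

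Variation between replicates, which edgeR estimates as a coefficient without counting error, was 51.0% for CCT8, 47.9% for CCT4 and 46.0% for TCP1 in the SETD3 table, against medians of 32.02%, 23.4% and 21.6% for genes of like level. In the ACTB table the same 3 subunits had 16.0%, 15.9% and 13.9%, against medians of 19.8%, 15.1% and 14.3% for genes of like level. Only 1.53% of genes of like level had a lower value than CCT8 there. CCT2 had 30.4%, above 99.6% of genes of like level. With both libraries left out, an alternative added after seeing the data, no subunit passed in the SETD3 comparisons. CCT8 was then at -0.86 for KO1 against CT (SE 0.29, adjusted p 0.477 in edgeR), and CCT2 at 1.58 for KO2 against KO1 (SE 0.32, adjusted p 0.132). With the GC and length trends removed, the SE of TCP1 for KO1 against CT was 0.35, against 0.53 without, and again no subunit passed.

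**Figure D5:**
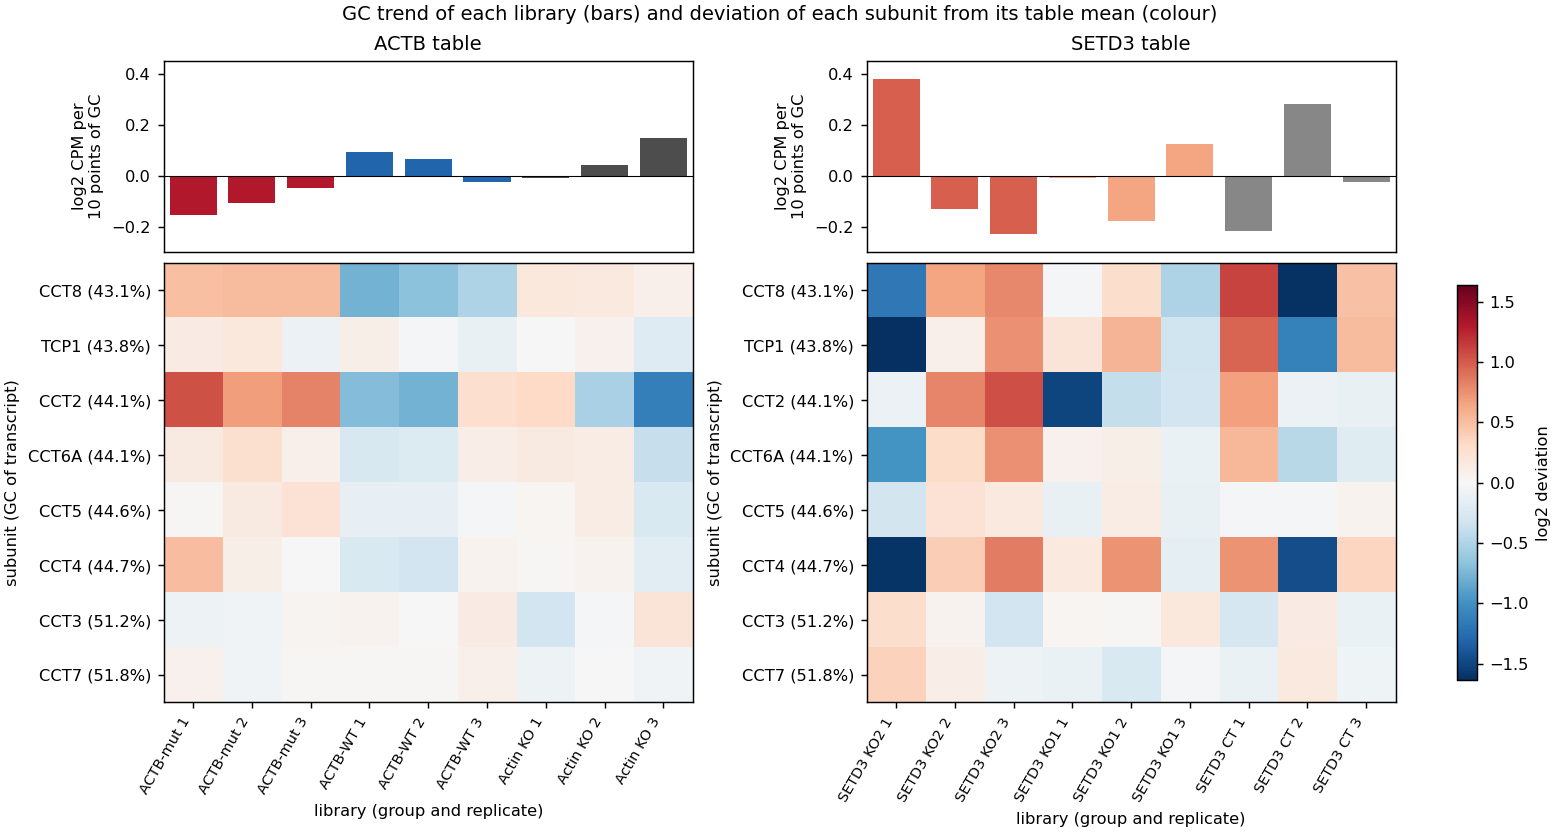
Top: GC trend of each library in log2 CPM per 10 points of GC. Bottom: log2 deviation of each subunit from its own mean in the table (colour), with subunits ordered by the GC content of their transcript. SETD3 KO2 replicate 1 and SETD3 CT replicate 2 have the highest GC trends, 0.38 and 0.28, and dark blue cells for TCP1, CCT4 and CCT8.

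Across libraries the subunits did not vary as 1 unit. Over the 18 libraries, as log2 deviations from each table's mean, the 10 pairs among TCP1, CCT2, CCT4, CCT6A and CCT8 had Pearson r of 0.20 to 0.95, the highest for CCT4 with TCP1. CCT3 and CCT7 had r of -0.83 to 0.13 with those 5 and 0.54 with each other. Without the 2 libraries above these ranges were 0.30 to 0.84 and -0.70 to 0.27, and 0.32. CCT5 had r of 0.50 (TCP1) to 0.70 (CCT6A) with the same 5, -0.50 with CCT3 and -0.33 with CCT7. Without the 2 libraries its r with the 5 ran from 0.31 (TCP1) to 0.70 (CCT2), and it was -0.37 with CCT3 and 0.04 with CCT7. The points share libraries, depth and base composition, and the r are descriptions. Among 3666 other genes of 32 CPM or more in both tables, the 8 most like the mean of the subunits were RRM2 (r 0.97), BRIX1 (0.93), RPL5 (0.92), PYURF (0.91), SUMO2 (0.90), NAP1L1 (0.90), SLC25A5 (0.90) and RPS7 (0.89). The mean is unweighted, so TCP1, CCT4 and CCT8, with large deviations, shape it more than CCT3 and CCT7 do. Without the 2 libraries RRM2 kept an r of 0.96, and the 8 ran from 0.80 to 0.96. Their transcripts have 38.1% to 52.5% GC.

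The other parts of the folding pathway and its clients gave few calls in edgeR, and more in DESeq2 among the actin groups. The 7 lists comprised prefoldin, phosducin-like cofactors, tubulin cofactors, cytosolic Hsp70 and Hsp90 chaperones, mitochondrial chaperones, known TRiC clients and chaperonin-like paralogues, with 69 rows tested among the actin groups and 67 among the SETD3 groups. edgeR called 1 of 69 for ACTB-WT against Actin KO, 2 of 69 for ACTB-mut against Actin KO and 0 of 69 for ACTB-mut against ACTB-WT, beside 1.12%, 0.922% and 1.24% of all tested genes. An unadjusted p was under 0.05 for 14, 16 and 17 of them, and for 11.2%, 11.5% and 12% of all tested genes. DESeq2 called 3 of 69, 7 of 60 and 7 of 69 rows with an adjusted p in the same order, beside 2.9%, 5.68% and 3.5% of all genes with one. For ACTB-mut against ACTB-WT these were 3 clients (TUBA1A, TUBA1C and ACTG1), 3 cytosolic chaperones (HSP90AA1, HSPA8 and STIP1) and TRAP1. In the SETD3 table both tools called 0 in each comparison. An unadjusted p in edgeR was under 0.05 for 2 of 67 (KO1 against CT), 4 of 67 (KO2 against CT) and 5 of 67 (KO2 against KO1), beside 5.75%, 4.95% and 4.84% of all tested genes.

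Of the clients, TUBA1A, an alpha-tubulin, rose in ACTB-WT. It stood at 78.6, 66.6 and 64.9 CPM in ACTB-WT, against 27.3, 31.1 and 32.3 CPM in Actin KO, a difference of 1.21 (SE 0.22, adjusted p 0.0102 in edgeR), and did not pass without ACTB-WT replicate 1 or without Actin KO replicate 1. All ACTB-WT libraries lay above all Actin KO libraries, as for 7.61% of tested genes. Reads of near-identical alpha-tubulin genes can be split between them in counting, so the value is uncertain. GNB2, a G protein beta subunit, fell in ACTB-mut, at 153, 180.4 and 209 CPM, against 264, 339 and 329.9 CPM in Actin KO (-0.78, SE 0.16, adjusted p 0.0312 in edgeR). HSPB1, a small heat shock protein, rose in ACTB-mut, at 2641, 2719 and 2698 CPM, against 1842, 2009 and 2129 CPM in Actin KO (0.43, SE 0.08, adjusted p 0.0203 in edgeR). These groups did not overlap for either gene, and 9.32% of tested genes were higher without overlap in ACTB-mut, as HSPB1 was. The HSPB1 call was lost with any 1 of the 6 libraries left out, and the GNB2 call with ACTB-mut replicate 1 or 2 or Actin KO replicate 2 or 3 left out.

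The cofactors that work with TRiC had no call in edgeR's test. All 6 prefoldin subunits were tested, and their median was 0.14 between ACTB-mut and ACTB-WT, against 0.02 over all tested genes, and 0.04 between ACTB-WT and Actin KO, against -0.01. Between ACTB-mut and Actin KO the median was 0.09, against 0.03. PFDN5, the most abundant prefoldin subunit, averaged 247 ± 75.8 CPM in ACTB-mut, 192 ± 33.4 CPM in ACTB-WT and 156 ± 44.96 CPM in Actin KO (SD, n = 3 each), and the libraries of these groups overlapped. For ACTB-mut against Actin KO it differed by 0.67 (SE 0.22, interval 0.19 to 1.14, adjusted p 0.220 in edgeR). PDCL, a phosducin-like cofactor that helps TRiC fold G protein beta subunits, averaged 8.83 ± 2.84 CPM in ACTB-mut, 3.21 ± 0.536 CPM in ACTB-WT and 7.67 ± 3.29 CPM in Actin KO (SD, n = 3 each), with an adjusted p of 0.290 for ACTB-mut against ACTB-WT in edgeR. For ACTB-WT against Actin KO it differed by -1.23 (SE 0.56, interval -2.42 to -0.05, adjusted p 0.422 in edgeR). All 3 tested phosducin-like cofactors had an unadjusted p under 0.05 there in edgeR (-2.76 to -1.23), beside 11.2% of tested genes. For ACTB-mut against ACTB-WT 2 of 3 did (0.21 to 2.53), beside 12%, and for ACTB-mut against Actin KO 0 of 3, beside 11.5%. TBCD, a tubulin cofactor, averaged 83.3, 96.8 and 99.98 CPM, TRAP1, the mitochondrial Hsp90, 417, 587 and 473 CPM, and MKKS, a chaperonin-like protein that helps assemble the ciliary BBSome, 9.65, 3.46 and 5.82 CPM in ACTB-mut, ACTB-WT and Actin KO, in that order. None of these passed edgeR's test in any of the 6 comparisons, and DESeq2 called TRAP1 alone of them, for ACTB-mut against ACTB-WT (-0.52, adjusted p 0.0185).

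Counting could touch some of these values. Of 13 rows annotated as pseudogenes of the subunits, 5 had counts, and they reached at most 0.325% of the counts of their parent. TCP1 overlaps ACAT2 by 558 bases on the opposite strand, CCT3 overlaps TSACC, CCT4 overlaps COMMD1 and an antisense gene, and CCT5 overlaps an antisense gene. The sources used here give no strand setting for the counting, so such reads cannot be assigned with certainty. CCT6A overlaps SNORA22B and SNORA15, and TCP1 also overlaps SNORA29 and SNORA20, all of them small nucleolar RNA genes on the same strand. CCT8 overlaps only AF129075.1, an intronic transcript on its own strand, and CCT2 and CCT7 overlap no annotated gene.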

How the data were processed

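Poly(A)-enriched RNA was measured in 18 libraries, grouped by their labels. The authors deposited RSEM expected counts per gene in 2 tables; per the submitters' processing notes the tools were Trim Galore 0.4.5, cutadapt 1.15, RSEM 1.2.28 and Bowtie2 on GRCh38. The sources used here name no annotation release and no strand setting. Of the values, 83.4% and 83.8% were whole within 0.005. Estimated counts were rounded, and each table was fitted with its 3 groups in edgeR 4.0.16 (R 4.3.3): filterByExpr, TMM, robust quasi-likelihood F tests, two-sided, Benjamini-Hochberg adjustment over all tested genes, call at an adjusted p below 0.05. The SE is the absolute log2 change over the square root of F. Intervals are 95%. The steps were tested on simulated counts. Locations, transcript lengths and GC came from GENCODE 29. Promoters came from RefSeq (GRCh38.p14). GC trends, chromosome medians and likeness used genes of 32 CPM or more, likeness on log2(CPM + 0.5).

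The members, lists and tests were chosen with earlier results of these data known. All 8 subunits are named. From each list every gene called by edgeR is named, or, where edgeR called none, the most abundant. Not all genes called by DESeq2 alone are named. The 8 genes of the most alike pattern are given. Alternatives were RLE scaling, no filter, DESeq2 1.42.0, the replicate block, offsets for GC and length, each library left out, and 2 libraries left out together. Depth was 3389586 to 11652967 counts, so CCT8, at 51 counts in its lowest library, carries more counting error than CCT3.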

Additional observations from a re-analysis of the deposited data

Results flagged for a closer look

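CCT8 differed between the cells with mutant and with wild-type actin in its change from Actin KO. The difference between these changes, which is the ACTB-mut against ACTB-WT comparison itself, was 1.16 on the log2 scale (adjusted p 0.00287 in edgeR), with changes from Actin KO of 0.37 in ACTB-mut and -0.79 in ACTB-WT. All 3 ACTB-mut libraries lay above and all 3 ACTB-WT libraries below the 3 Actin KO libraries. Taken singly, the first held for 9.32% of tested genes and the second for 9.08%.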

How the results depend on the processing

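The CCT8 difference between ACTB-mut and ACTB-WT kept its direction and its call under RLE scaling, no filter, DESeq2, the replicate block, GC and length offsets and each library left out (0.92 to 1.23). The count of 1 called subunit for ACTB-WT against Actin KO was 0 with the replicate block and 0 to 0 with 1 library left out. With no filter on low counts, 1 subunit was called for ACTB-mut against Actin KO, 2 for ACTB-mut against ACTB-WT and 1 for SETD3 KO2 against SETD3 KO1; the added call was CCT2 in each. With 1 library left out the first pair of counts ran from 0 to 1 and from 1 to 2, and all SETD3 counts were 0 to 0. Of 552 alternative values of single subunits, 489 kept direction and call, 51 uncalled values changed sign, 5 gained a call, 7 lost one and 0 called values changed sign. Of 483 list counts, 29 moved. Over the whole tables, in the order ACTB-WT against Actin KO, ACTB-mut against Actin KO, ACTB-mut against ACTB-WT, SETD3 KO1 against CT, KO2 against CT and KO2 against KO1, the calls numbered 155, 128, 172, 2, 8 and 4. They were 320, 371, 402, 58, 68 and 58 without the filter, 433, 447, 524, 91, 110 and 74 in DESeq2, and 89, 85, 83, 0, 1 and 3 with the replicate block. GC and length offsets gave 170, 95, 117, 12, 27 and 19. With 1 library left out they ran from 79 to 106, 34 to 77, 60 to 129, 0 to 4, 3 to 7 and 3 to 5. The cause of these moves was not tested. Same-numbered libraries had deviations from their group means correlated at -0.16 to 0.09 among the actin groups and at -0.58 to 0.23 among the SETD3 groups. With 3 libraries a group, and 2 SETD3 libraries that stand apart, these correlations cannot tell whether same-numbered libraries shared a culture or day. The labels do not say. With the block the CCT8 value for ACTB-WT against Actin KO was -0.79 (adjusted p 0.0753 in edgeR), and the lists that held the HSPB1 and GNB2 calls for ACTB-mut against Actin KO had 0 calls each. CCT8 had the lowest count of any subunit, at 51 in its lowest library.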
